A study of Homo sapiens with 30 samples.

Results

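The secreted antagonists of bone morphogenetic proteins (BMPs) and activins were examined in breast cancer cells exposed to BMP7. The set held 10 genes, NOG, GREM1, SOST, CHRD, TWSG1, CRIM1, BMPER, FST, FSTL1 and FSTL3, and was read from all 16 probes that carry one of these names among the 41000 probes of the array. The samples were 5 established human breast cancer cell lines, HCC1954, MDA-MB-231, MDA-MB-361, T-47D and ZR-75-30, each given recombinant human BMP7 or vehicle for 30 min, 1, 3, 6, 12 or 24 h, and MDA-MB-231 and T-47D were kept in medium with reduced serum. Each of the 30 two-colour arrays set one BMP7 sample (Cy5) against the vehicle sample (Cy3) of the same line and time, and every sample was a pool of 3 cultures. The 6 arrays of a line are therefore 6 time points, none of them repeated, and because the dyes were never swapped a constant dye effect of a probe stays in its mean ratio but cancels when time points or lines are compared.

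BMPs and activins are secreted ligands that bind serine/threonine kinase receptors and act through SMAD proteins. Noggin (NOG), gremlin 1 (GREM1) and chordin (CHRD) bind BMPs outside the cell and keep them from their receptors, sclerostin (SOST) is a relative best known as a Wnt inhibitor from bone, and follistatin (FST) and FSTL3 bind activins most tightly. Twisted gastrulation (TWSG1) and BMPER bind BMPs and can dampen or promote signaling, CRIM1 is a membrane-anchored protein with chordin-like repeats, and FSTL1 is a more distant follistatin relative. Transcription of several such antagonists is raised by BMPs in other tissues, which makes them candidate feedback regulators.

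Both channels exceeded background clearly at 54.6% to 69.1% of the spots of an array, and the number of arrays limits the precision. The vehicle profile of each of the 30 arrays correlated better with its own line than with any other. The arrays that stood apart, by thresholds set after the values were seen, numbered 4: MDA-MB-231 at 6 h, T-47D at 3 h and 24 h with a median correlation to their own line under 0.95, and ZR-75-30 at 6 h with the widest spread of log ratios (0.54). Of the line markers, the mesenchymal gene VIM had its highest mean vehicle level in MDA-MB-231, where the epithelial gene CDH1 had its lowest, and ERBB2 was highest in MDA-MB-361, HCC1954 and ZR-75-30. The luminal gene GATA3 was highest in ZR-75-30 and T-47D, whereas the estrogen receptor gene ESR1 was dim in ZR-75-30 (mean -4.22, above background on 4 of 6 arrays) and the progesterone receptor gene PGR was above background there on no array. As a check for stromal cells, which are a common source of these antagonists, COL1A2 was above background on no array and COL3A1 on 2 arrays, both of ZR-75-30. PDGFRB and LUM were each above background on 5 of 6 arrays of MDA-MB-231, COL1A1 was above background on all 6 arrays of 3 lines and THY1 in every line. Of the 6 stromal genes, 1 or 2 were above background on all arrays of any line, and the summed log2 level of the list ranged from -0.19 in ZR-75-30 to 1.83 in T-47D. Each sample came from a single established line, and a bulk level does not show what share of its cells holds the RNA.

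In vehicle-treated cells the antagonists differed in the lines where they were detected. FSTL1, FSTL3, CHRD and TWSG1 were detected in every line on all 6 arrays, CRIM1 was detected in every line but on 4 of 6 arrays in MDA-MB-361, and NOG, FST, SOST and BMPER were detected in some lines and at or below background in the others. GREM1 was above background on 3 of 30 arrays. MDA-MB-231 held 9 of the 10 genes above background on all 6 arrays, HCC1954 and ZR-75-30 held 6, T-47D 5 and MDA-MB-361 4, while 51.1% of all probes on the array were above background on all 6 arrays of MDA-MB-231 and 59.2% in MDA-MB-361.

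**Figure D1:**
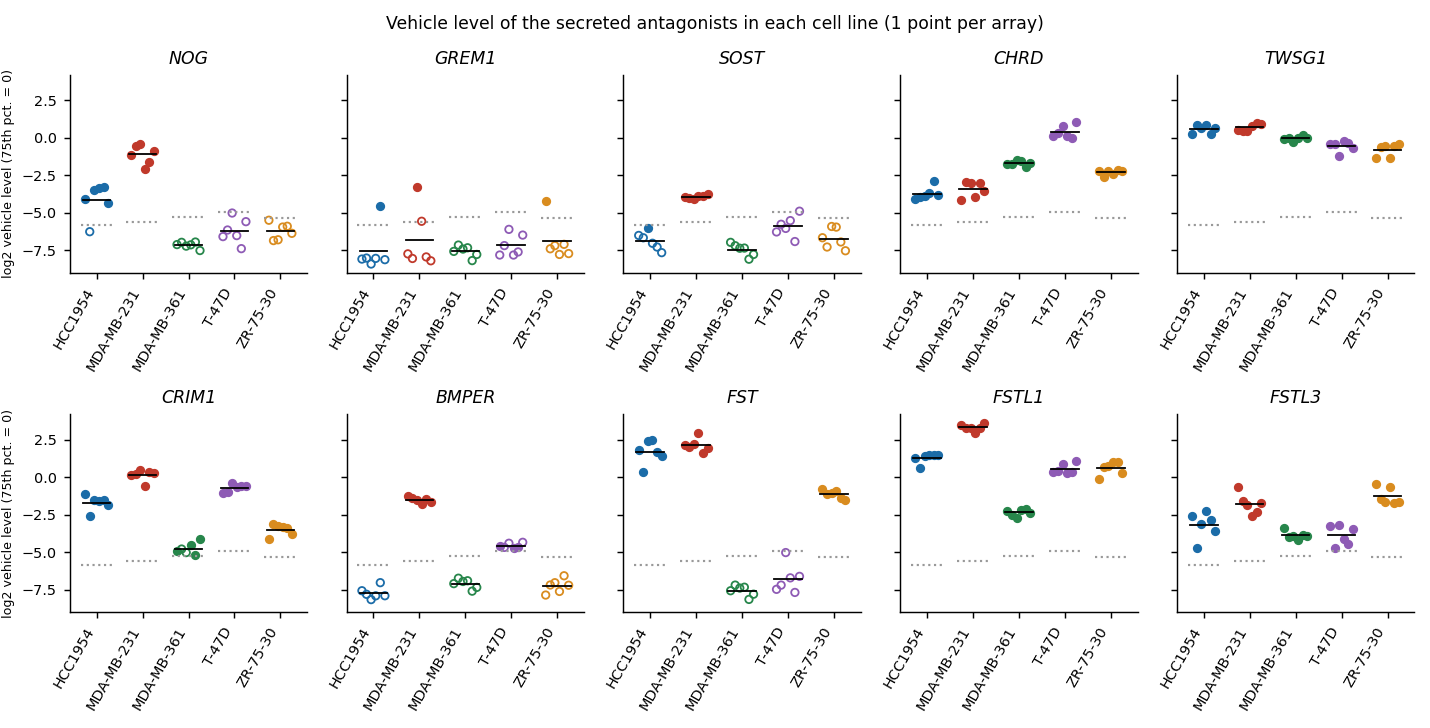
Vehicle level (log2 processed signal, with each array's 75th percentile set to 0) of the 10 genes in each of 5 lines, 1 point per array. Filled points are well above background and open points are not, the black line is the mean of 6 arrays and the dotted line the lowest signal of any probe well above background, averaged over the arrays. NOG, SOST, BMPER and FST lie near or under the dotted line in some lines and above it in MDA-MB-231.

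Levels below are log2 processed vehicle signals relative to the 75th percentile of their array, and the probe given first for each gene is the one above background in vehicle on most arrays. With limma, 9 of the 10 genes differed between lines at an adjusted p under 0.05, where 75.6% of all probes did, so that count lies near the background of the array. To keep values below background from widening a range, each was raised to the lowest signal among probes above background on its array. The median range between these bounded line means was 4.15 for the 10 genes and 1.25 for all probes. With normexp background correction in place of the bound, the medians for the 10 genes and all probes were 2.75 and 1.28. The ranges were 5.79 for FST, 3.07 for CRIM1, 2.77 for BMPER, 2.74 for NOG, 1.55 for FSTL3 and 1.199 for SOST. Folds given below as at least rest on the bound in processed signals and need not be lower limits under normexp. Of the 100 pairs of lines over the 10 genes, 74 passed (47.1% of pairs over all probes), and 69 of these had the gene above background in at least 1 of the lines. All these tests used the measured levels, so an adjusted p for a line below background is that of the unbounded difference. Serum was reduced throughout for MDA-MB-231 and T-47D, so their levels are those of line and medium together. No slide but slide 4 carried arrays of more than 1 line, and that slide served ZR-75-30 and MDA-MB-231. A difference between lines below is thus one of lines with their media and slides, and the part of each was not tested.

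Follistatin showed the widest range. FST (chr5:52816594-52816653, hg18, plus strand) ran from 1.64 to 2.97 in MDA-MB-231, with a median of 2.08. It ran from 0.35 to 2.46 in HCC1954, with a median of 1.75, and from -1.52 to -0.78 in ZR-75-30, with a median of -1.07. MDA-MB-231 and HCC1954 overlap, and ZR-75-30 lies below both. In MDA-MB-361 and T-47D the gene was not well above background on any array, with measured means of -7.57 and -6.78. With the lower level bounded by the lowest processed signal among probes above background, MDA-MB-231 was at least 173-fold higher than MDA-MB-361. It was at least 137-fold higher than T-47D by the same bound. The unbounded difference from MDA-MB-361 had an adjusted p of 1.04e-18 (limma). MDA-MB-231 was 9.72-fold above ZR-75-30 (adjusted p = 1.02e-09) but did not differ from HCC1954 beyond the spread between arrays (adjusted p = 0.196). The range between bounded line means was 7.44, limited by the background of MDA-MB-361, and 99.0% of all probes spanned a smaller one. With normexp the FST range was 5.79.

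Among the ligands that FST binds, INHBA, the activin A subunit, also had its highest mean vehicle levels in these lines. Its means were 2.28 ± 0.54 (SD, n = 6) in MDA-MB-231 and 1.17 ± 1.19 in HCC1954, against -3.31 in T-47D, -3.74 in ZR-75-30 and -5.39 in MDA-MB-361, where it was above background on 1 of 6 arrays. INHBB, the activin B subunit, was above background on all arrays of all lines, with means from 0.87 in MDA-MB-231 to 4.09 in ZR-75-30. GDF11 and MSTN, also listed as ligands of the antagonists, did not share the order of INHBA. The mean of GDF11 was highest in T-47D (-0.85), -1.09 in MDA-MB-231 and lowest in HCC1954 (-3.23). MSTN was not above background in any line. BMP7 itself was not above background in vehicle on any array of MDA-MB-231 and had means of -0.61 in T-47D, 1.07 in MDA-MB-361, 2.82 in HCC1954 and 5.82 in ZR-75-30.

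The other members of the follistatin family were expressed everywhere. FSTL1 (chr3:121596122-121596181, minus strand) had a median of 3.27 in MDA-MB-231, where its lowest array (2.96) exceeded every array of the other lines. The medians were 1.43 in HCC1954, 0.73 in ZR-75-30, 0.38 in T-47D and -2.31 in MDA-MB-361, and the mean in MDA-MB-231 was 50.6-fold above that in MDA-MB-361 (adjusted p = 3.46e-17). ZR-75-30 and T-47D, neighbours in this order, did not differ beyond their spread (adjusted p = 0.854). FSTL3 (chr19:633846-633905, plus strand) varied less. Its medians were -1.55 in ZR-75-30, -1.80 in MDA-MB-231, -2.996 in HCC1954, -3.81 in T-47D and -3.93 in MDA-MB-361. The first pair of these lines did not differ beyond their spread (adjusted p = 0.153), nor did HCC1954 and T-47D (adjusted p = 0.0726) or T-47D and MDA-MB-361 (adjusted p = 0.977), whereas ZR-75-30 was 6.13-fold above MDA-MB-361 (adjusted p = 8.04e-08).

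Noggin was detected in vehicle in 2 lines. NOG (chr17:52027218-52027277, plus strand) ran from -2.04 to -0.38 in MDA-MB-231, with a median of -1.003. In HCC1954 its median was -3.77 and it was above background on 5 of 6 arrays, the exception being 1 h (-6.25), an array on which FST and FSTL1 also had their lowest level of that line. The 2 lines differed 8.15-fold (adjusted p = 1.53e-06). In the other 3 lines NOG was not well above background. The bound on processed signals put MDA-MB-231 at least 14.3-fold above T-47D, at least 17.9-fold above ZR-75-30 and at least 18.2-fold above MDA-MB-361. With normexp the log2 range of NOG over lines was 2.74.

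BMPER and sclerostin were likewise highest in MDA-MB-231. BMPER (chr7:34159414-34159473, plus strand) ran from -1.79 to -1.25 there, with a median of -1.47. In T-47D it was above background on 3 of 6 arrays with a median of -4.61, 8.32-fold lower than MDA-MB-231 (adjusted p = 3.56e-12), and it was not above background in the other 3 lines. The second BMPER probe (chr7:34161877-34161936) was dimmer, above background on 3 arrays of MDA-MB-231 and on none elsewhere. SOST (chr17:39187494-39187553, minus strand) was dim, between -4.10 and -3.74 in MDA-MB-231, above background on all 6 arrays. By the bound on processed signals SOST in MDA-MB-231 was at least 2.64-fold above its level in ZR-75-30 and at least 2.01-fold above that in T-47D. With normexp its log2 range over lines was 1.199. Apart from 1 array of HCC1954 at 3 h, it was above background in vehicle nowhere else. GREM1 (chr15:30813367-30813426, plus strand) was above background in vehicle on 1 array each of ZR-75-30, MDA-MB-231 and HCC1954, and its level did not pass the test between lines (adjusted p = 0.771).

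Chordin had another order of lines. CHRD (chr3:185590187-185590246, plus strand) ran from -0.00 to 1.09 in T-47D, with a median of 0.24, and the next line, MDA-MB-361, ran from -1.95 to -1.50. The medians were -2.20 in ZR-75-30, -3.28 in MDA-MB-231 and -3.85 in HCC1954. T-47D was 4.28-fold above MDA-MB-361 (adjusted p = 1.47e-08) and 17.4-fold above HCC1954 (adjusted p = 5.53e-14), while MDA-MB-231 and HCC1954 did not differ beyond their spread (adjusted p = 0.307). The second CHRD probe (chr3:185587397-185587568) was dimmer, and its range between bounded line means was 1.29 where that of the first probe was 4.12. It too was highest in T-47D, above ZR-75-30 (adjusted p = 0.0151), HCC1954 (0.00329) and MDA-MB-231 (0.00107), whereas the test against MDA-MB-361 was not passed (adjusted p = 0.0939).

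CRIM1 and TWSG1 completed the set. CRIM1 (chr2:36630066-36630125, plus strand) had medians of 0.25 in MDA-MB-231, -0.63 in T-47D, -1.56 in HCC1954, -3.37 in ZR-75-30 and -4.84 in MDA-MB-361. Every pair of neighbours in this order differed, with adjusted p of at most 0.00398 (MDA-MB-231 and T-47D), and the outer lines lay 30.1-fold apart (adjusted p = 7.83e-15). Not every step held on the other probes. T-47D and HCC1954 did not differ beyond their spread on the second probe (adjusted p = 0.196) or the third (adjusted p = 0.703), although the levels of the 3 probes correlated with r from 0.92 to 0.96 over the 30 arrays. All 3 were highest in MDA-MB-231 and lowest in MDA-MB-361, where the second and the third were above background on no array. TWSG1 (chr18:9390235-9390294, plus strand) varied least of the 9 genes that differed, except under normexp, where SOST did. Its medians were 0.66 in HCC1954 and 0.65 in MDA-MB-231, then -0.03 in MDA-MB-361, with -0.39 in T-47D and -0.59 in ZR-75-30, and MDA-MB-231 was 2.80-fold above ZR-75-30 by the means (adjusted p = 2.52e-07). MDA-MB-231 and HCC1954 did not differ beyond their spread on the first probe (adjusted p = 0.703) or the second (adjusted p = 0.789). On the third probe MDA-MB-231 was 1.95-fold above HCC1954 (adjusted p = 1.44e-05), and the mean of MDA-MB-361, 0.76, lay above that of HCC1954, 0.56, by less than the spread (adjusted p = 0.272). T-47D and ZR-75-30 were the lowest lines on all 3 probes. Of all probes, 58.7% spanned a smaller range of bounded line means than the first TWSG1 probe.

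Exposure to BMP7 was then read as the log2 ratio of BMP7 over vehicle on arrays where both channels were well above background, which gave 194 readings of the 10 genes. Of these, 95.9% lay within 0.5 of no change (91.8% over all probes), and the median absolute log2 ratio was 0.132 (0.158 over all probes). One reading, 1 of 194, passed 2-fold, where 0.798% of the readings of all probes did. It was CHRD in MDA-MB-231 at 24 h, with a log2 ratio of -1.23.

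For orientation, ID1, a direct transcriptional target of BMP signaling, was raised in all 5 lines. Its mean log2 ratio over lines was 0.81 ± 0.12 (SE, n = 5 lines, adjusted p = 0.0245, limma), and ratios at 3 to 24 h exceeded those at 30 min by 1.05 ± 0.22 (adjusted p = 0.021). SMAD6, an inhibitory SMAD inside the cell, rose by 0.67 ± 0.11 in the same contrast (n = 4 lines, adjusted p = 0.00717) and had a mean of 0.39 ± 0.13 over lines (adjusted p = 0.219). With scan batch as a term both changes from 30 min kept their size but missed the threshold, at 0.90 for ID1 (adjusted p = 0.0663) and 0.62 for SMAD6 (adjusted p = 0.0503), and the mean of ID1 over lines was 0.80 without the 4 arrays that stood apart (adjusted p = 0.0573). Leaving out a line gave ID1 means from 0.67 to 0.90, with adjusted p from 0.0225 to 0.0995. The ratios of ID1 reached 2.62 in MDA-MB-231 at 24 h, on the array with the lowest CHRD ratio.

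**Figure D2:**
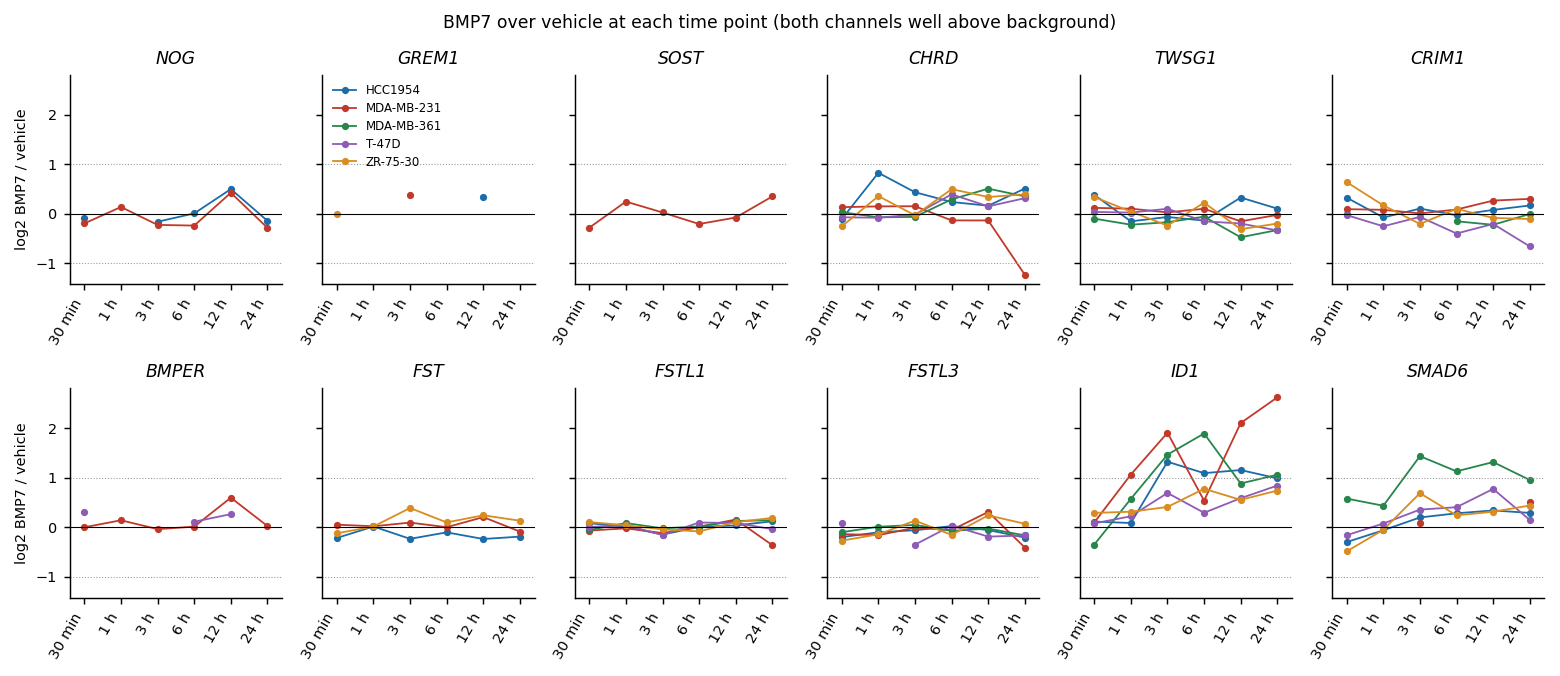
Log2 ratio of BMP7 over vehicle (vertical axis) at each time point (horizontal axis, evenly spaced) for the 10 antagonists, ID1 and SMAD6, 1 line per cell line, drawn where both channels were well above background. Dotted lines mark 2-fold. The antagonists stay between the dotted lines except CHRD in MDA-MB-231 at 24 h (-1.23), whereas ID1 crosses 2-fold in 3 of 5 lines.

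Over the 5 lines none of the antagonists had a mean ratio that passed the test. Of 10 genes, 6 had enough lines to be tested (at least 3 lines with 4 arrays each), and limma called 0 of them, and 0 at an unadjusted p under 0.05, where 0.648% of all probes were called (0.484% upward and 0.164% downward). The mean log2 ratio was 0.14 ± 0.07 (SE, n = 5 lines, adjusted p = 0.408) for CHRD, -0.08 ± 0.05 (adjusted p = 0.483) for FSTL3 and -0.04 ± 0.06 for TWSG1. For FSTL1, CRIM1 and FST, the last over 3 lines, it lay between -0.01 and 0.01. FSTL3 was below 0 in 5 of 5 line means, but each of these was between -0.12 and -0.02. The median of the 6 genes was -0.00, that of all probes -0.00.

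**Figure D3:**
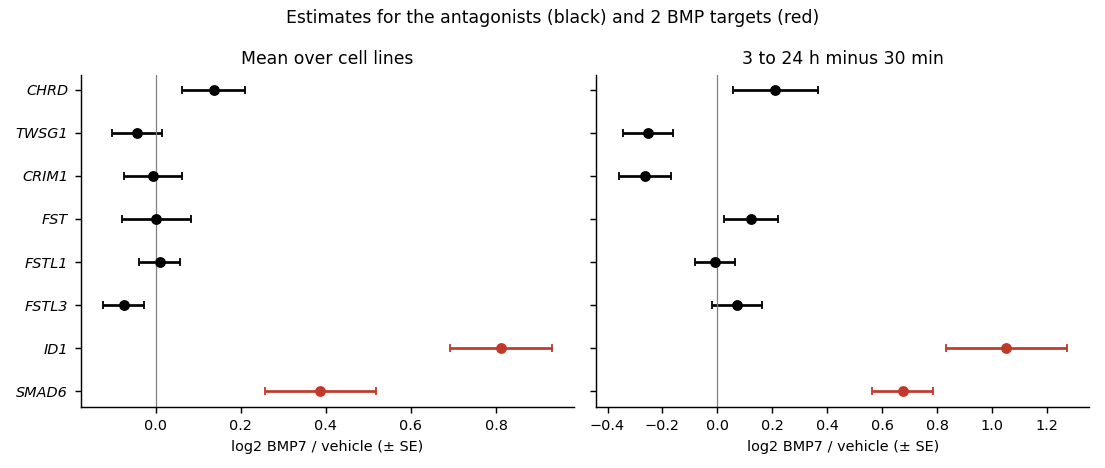
Log2 ratio of BMP7 over vehicle (horizontal axis, with SE) averaged over cell lines (left) and as the difference of 3 to 24 h from 30 min (right) for the 6 antagonists tested (black) and for ID1 and SMAD6 (red). All antagonist estimates lie between -0.27 and 0.21, and ID1 lies at 0.81 and 1.05.

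The contrast of 3 to 24 h with 30 min, in which a constant dye effect cancels, was tested for the same 6 genes. Limma called 0 of them, with 2 at an unadjusted p under 0.05, while 4.73% of all probes were called (2.38% upward and 2.34% downward). These were CRIM1, at -0.27 ± 0.10 (adjusted p = 0.0935), and TWSG1, at -0.25 ± 0.09 (adjusted p = 0.0946). TWSG1 was lower than at 30 min in 5 of 5 lines, with differences from -0.13 in MDA-MB-231 to -0.47 in ZR-75-30.

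Its other probes gave the following. The second TWSG1 probe (chr18:9389460-9389519) had a difference of -0.36 ± 0.10 (adjusted p = 0.042), lower in 5 of 5 lines, and was the only one of the 10 member probes tested that passed. The third (chr18:9392199-9392258) had -0.17 ± 0.14 (adjusted p = 0.471). On the second probe the ratio at 30 min was 0.59 in ZR-75-30, 0.46 in HCC1954, 0.37 in T-47D, 0.25 in MDA-MB-231 and -0.06 in MDA-MB-361, and in 4 of these lines it was above 0, so the difference set a high first reading against later ratios whose line means ran from -0.33 to 0.16. In 3 of the 5 lines the 30 min array was scanned in the second of 2 scan batches. With scan batch as a term the estimate was -0.30 (adjusted p = 0.163), and within the first batch the difference was -0.27 in MDA-MB-361 and -0.64 in T-47D.

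CRIM1 gave a like picture on its first and second probe. On the first the ratio at 30 min was 0.64 in ZR-75-30, 0.33 in HCC1954 and 0.10 in MDA-MB-231. It was 0.00 in MDA-MB-361 and -0.03 in T-47D, and later ratios were lower in 4 of 5 lines. The second CRIM1 probe (chr2:36631331-36631390) had -0.39 ± 0.12 over 4 lines (adjusted p = 0.07), lower in each of them. The third had too few arrays to be tested and was lower in no line read. Its differences were 0.03 in HCC1954, 0.09 in MDA-MB-231 and 0.02 in T-47D. Within the first scan batch, the difference on the first probe was -0.13 in MDA-MB-361 and -0.40 in T-47D.

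CHRD had the opposite sign in most lines. Later ratios exceeded the 30 min ratio by 0.56 in ZR-75-30, 0.44 in HCC1954, 0.28 in T-47D and 0.24 in MDA-MB-361 and differed from it by -0.47 in MDA-MB-231, so that the estimate over lines was 0.21 ± 0.16 (adjusted p = 0.444). Without MDA-MB-231 it was 0.38 (adjusted p = 0.0467), the only 1 of 14 alternative analyses that passed. The 30 min arrays of ZR-75-30, HCC1954 and MDA-MB-231 were scanned in the second batch. Within the first batch the difference on the first probe was 0.24 in MDA-MB-361 and 0.36 in T-47D. The second CHRD probe had 0.14 ± 0.07 (adjusted p = 0.244), above 0 in 5 of 5 lines. The highest CHRD reading was 0.83, in HCC1954 at 1 h, where the other arrays ran from -0.105 at 30 min to 0.51 at 24 h and the line mean of 0.35 did not pass (adjusted p = 0.0763). On the array with the reading of -1.23 the second CHRD probe stood at 0.16, and over 28 arrays the ratios of the 2 probes correlated with r = 0.13. FST had 0.12 ± 0.10 over 3 lines, FSTL3 0.07 ± 0.09 and FSTL1 -0.01 ± 0.07.

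The mean ratio was then compared between lines. Of the 7 genes with enough lines, 1 passed, CRIM1, where 19.7% of all probes did. Its mean log2 ratio was 0.14 in MDA-MB-231, 0.10 in HCC1954, 0.09 in ZR-75-30, -0.09 in MDA-MB-361 and -0.27 in T-47D, a range of 0.41 (adjusted p = 0.0475). In T-47D all 6 arrays were below 0, from -0.66 at 24 h to -0.03 at 30 min, and in MDA-MB-231 all 6 were above 0, from 0.01 to 0.30, so these lines do not overlap. FST was next by adjusted p, though not by size, with a range of 0.29 over 3 lines (adjusted p = 0.0538), at -0.16 ± 0.10 (SD, n = 6) in HCC1954, 0.05 ± 0.10 in MDA-MB-231 and 0.12 ± 0.18 in ZR-75-30. It passed in 2 of 14 alternative analyses, with scan batch as a term (adjusted p = 0.0387) and without MDA-MB-231 (adjusted p = 0.0344), and without HCC1954 its range was 0.08 (adjusted p = 0.565). The ranges of CHRD, 0.52 (adjusted p = 0.18), and TWSG1, 0.30 (adjusted p = 0.191), were larger and did not pass. CRIM1 did not pass in 9 of 14 alternative analyses, among them the one without the 4 arrays that stood apart (0.37, adjusted p = 0.145) and the one without T-47D (0.23, adjusted p = 0.427).

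The CRIM1 probes disagreed on this difference. Within T-47D the first probe had a mean of -0.27 ± 0.08 (SE, adjusted p = 0.0348), the only one of 32 line means of first probes that passed, where 12.0% of line means over all probes did (4.74% in MDA-MB-231, 10.5% in HCC1954, 14.3% in MDA-MB-361, 14.8% in ZR-75-30 and 16.0% in T-47D). The third CRIM1 probe (chr2:36629233-36629292) was above 0 on all 5 arrays of T-47D that gave a ratio, with a mean of 0.32 ± 0.09 (adjusted p = 0.0224), and the second had 0.22 ± 0.10 (adjusted p = 0.161). Between lines, the second probe had a range of 0.52, highest in HCC1954 and lowest in ZR-75-30 (adjusted p = 0.0578), and the third one of 0.38, highest in T-47D and lowest in MDA-MB-231 (adjusted p = 0.0554). Over the arrays on which both were read the ratios of the first and the third probe correlated with r = -0.37 (17 arrays), although their vehicle levels correlated with r = 0.96. For the call in T-47D the direction thus depended on the probe.

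The TWSG1 probes were closer to each other. Their ratios correlated with r of 0.81 (first and second, 30 arrays), 0.61 and 0.62 (29 arrays each). In MDA-MB-361 the means were -0.22, -0.22 and -0.25 on the first, the second and the third probe, and on the first and the third all 6 arrays were below 0, though no probe passed in that line (adjusted p = 0.0638, 0.134 and 0.12). The second probe differed between lines by 0.46, highest in ZR-75-30 and lowest in MDA-MB-361 (adjusted p = 0.0497). The first had 0.30 (adjusted p = 0.191) and the third 0.41 (adjusted p = 0.14), both highest in HCC1954 and lowest in MDA-MB-361.

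**Figure D4:**
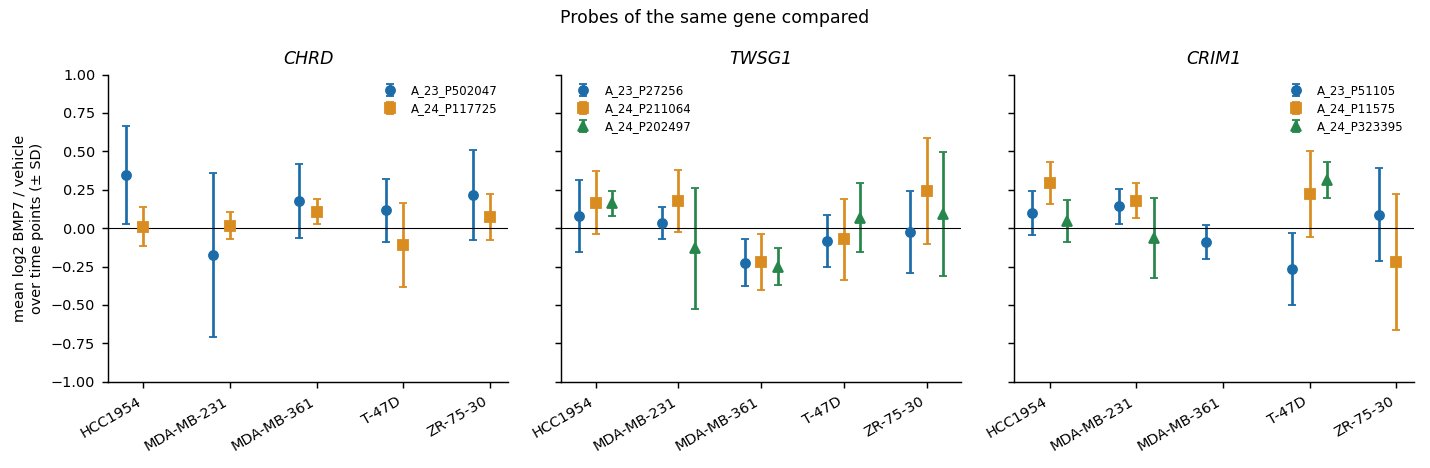
Mean log2 ratio of BMP7 over vehicle over the time points of each cell line (vertical axis, with SD) for every probe of CHRD, TWSG1 and CRIM1 that had at least 4 arrays in a line. In T-47D the first CRIM1 probe lies at -0.27 and the other probes at 0.22 and 0.32, while the 3 TWSG1 probes of MDA-MB-361 lie between -0.25 and -0.22.

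The antagonists that few lines expressed could be read in those lines only. NOG ratios in HCC1954 lay between -0.16 and 0.01 on 4 arrays and at 0.50 on the 12 h array, and in MDA-MB-231 they ran from -0.28 to 0.43, with the highest again at 12 h. The line means, 0.03 ± 0.27 (SD, n = 5) and -0.06 ± 0.28 (n = 6), did not pass (adjusted p = 0.904 and 0.741). SOST in MDA-MB-231 ran from -0.28 at 30 min to 0.35 at 24 h, with no steady course in between, and had a mean of 0.01 ± 0.25.

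BMPER in MDA-MB-231 lay between -0.04 and 0.14 on 5 arrays and at 0.59 at 12 h. In T-47D it was read on 3 arrays, at 0.32, 0.11 and 0.26 for 30 min, 6 h and 12 h, and on 2 further arrays, 1 h and 24 h, it was above background in the BMP7 channel but not in vehicle. GREM1 had 3 readings, 0.38 in MDA-MB-231 at 3 h, 0.33 in HCC1954 at 12 h and 0.00 in ZR-75-30 at 30 min. No antagonist that was below background in vehicle throughout a line was above background in the BMP7 channel on more than 1 array of it, and the one such reading was SOST in ZR-75-30 at 6 h, an array that stood apart.

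In MDA-MB-231, the line with most antagonists, the highest and lowest ratios were shared by time, a pattern noticed after the values were seen. Of the 9 genes read on all 6 arrays, 5 (NOG, FST, FSTL1, FSTL3 and BMPER) were highest at 12 h, and 5 (NOG, FST, FSTL1, FSTL3 and CHRD) were lowest at 24 h. The spread of the log ratios over all probes was also wider on these arrays, 0.39 at 12 h and 0.36 at 24 h against 0.15 to 0.17 on the other 4, and its part in the pattern was not tested.

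The surrounding pathway was counted from the same fits. Of 10 BMP targets and intracellular feedback genes, 4 rose from 30 min to 3 to 24 h (ID1, ID2, ID3 and SMAD6) and none fell, with a median change of 0.53, where 4.73% of all probes were called in this contrast. ID3, an inhibitor of differentiation like ID1 and ID2, rose by 0.92 ± 0.15 (adjusted p = 0.00641). Of 6 SMADs, SMAD9, a receptor-activated SMAD of the BMP branch, rose by 0.70 ± 0.17 (adjusted p = 0.0292) and SMAD4, the common partner SMAD, fell by 0.49 (adjusted p = 0.0373). None of these 6 calls held with scan batch as a term, where the estimates were 0.55 for ID2, 0.75 for ID3, 0.76 for SMAD9 and -0.44 for SMAD4 (adjusted p from 0.0503 to 0.114 over the 6), nor without HCC1954 or without ZR-75-30. Limma called 0 of the 6 receptors tested (2 at an unadjusted p under 0.05), 0 of 6 ligands (1), 0 of 1 protease that cleaves chordin (1) and 0 of 1 other secreted antagonist (0). In the mean over lines limma called 2 of the 10 targets and feedback genes, ATOH8 and ID1, against 0.648% of all probes. It called 0 in the other pathway lists. Between lines, where 19.7% of all probes passed, it called ID2, ID3 and SMAD6 of the same 10 genes. It also called SMAD2 and SMAD9 of 6 SMADs, ACVR2A of 7 receptors, the BMP7 gene of 8 ligands and 0 of 2 proteases. Of 12 other secreted antagonists, 4 could be compared between lines and 1 differed, close to the 19.7% of all probes. It was NBL1, a BMP-binding relative of gremlin, with a range of 0.47 (adjusted p = 0.0436) and a mean over lines of -0.24 ± 0.07 (adjusted p = 0.173). Without MDA-MB-361 the NBL1 range was 0.19 (adjusted p = 0.687).

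The probes whose ratio over the arrays was most like that of a member were named for the 5 genes read on at least 24 arrays. For TWSG1 they were ZNF493 (r = 0.86), TIA1 (0.83) and TMEM38B (0.83), and for CRIM1 GOLGA7 (0.85), CD164 (0.84) and NIPA2 (0.80). For CHRD they were LDB1 (0.78), RGMA (0.75) and TCF23 (0.72), for FSTL3 CDR2L (0.78), TES (0.77) and NKIRAS2 (0.76), and for FSTL1 FUT8 (0.74), TBC1D23 (0.74) and ZFYVE1 (0.71). These correlations are over 24 to 30 arrays that share lines and slides, and each is the highest of many probes, so they are descriptions only.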

How the data were processed

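Per the file headers, the authors' Feature Extraction software (version 9.5.1.1, hg18) made the deposited log10 ratios of Cy5 over Cy3 and the processed intensity of each channel, which were background corrected and dye normalized. The deposited series matrix holds log2 ratios, centered on the array (all column medians 0), which correlated with the scanner values at r of at least 0.9996 on every array.

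The log10 ratios were rescaled to log2 without control spots or spots marked as outliers, averaged per probe and centered on each array's median. Vehicle levels are log2 processed signals minus the 75th percentile of the array. Lines were compared with limma 3.58.1 (R 4.3.3) and Benjamini-Hochberg adjustment over all probes, with time point as a block for vehicle levels and cell line as a block for 3 to 24 h against 30 min. Line means of at least 4 arrays entered the mean over lines, tested against 0. On simulated data with a log2 shift of 1, the fits of the ratios recovered at least 92.5% of 200 changed probes. The vehicle fit recovered 40.5% of those drawn from all probes, 72.5% of those above background on all arrays and, with a shift of 3, 99.0%, so pairs of lines that did not pass are not shown to be alike. The simulated noise was independent between arrays, with no spread shared within a line, slide or scan batch. The changed probes of the ratio fits had a ratio on every array. The shares recovered therefore do not give the power of the tests on the antagonists. All member probes are named. INHBA, INHBB, GDF11 and MSTN, listed as ligands of the antagonists, are named for their vehicle levels. Other pathway genes, beside ID1 and SMAD6, are named where an adjusted p for ratios passed 0.05. The fits were the mean over lines, the change from 30 min and the difference between lines. The members and lists were chosen with earlier results of these data known. Samples were pooled cultures, so p-values measure the spread between time points or lines. Figures used matplotlib 3.10.9. The alternatives tried were other background correction and scaling, other spot filters, the series matrix, scan batch, slide, and leaving out each line or time point.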

Additional observations from a re-analysis of the deposited data

Results flagged for a closer look

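Of the antagonists' readings, 6 stood far from the other arrays of their line, among 62 groups of arrays examined, of which chance marks about 1 in 20. The CHRD ratio of MDA-MB-231 at 24 h was -1.23, where the nearest array was at -0.13. The BMPER ratio of MDA-MB-231 at 12 h was 0.595 (nearest 0.14), and the NOG ratio of HCC1954 at 12 h was 0.5 (nearest 0.01). In vehicle, FSTL1 was at 0.61 in HCC1954 at 1 h (nearest 1.31), CHRD at -2.84 in HCC1954 at 12 h (nearest -3.69) and CRIM1 at -0.61 in MDA-MB-231 at 6 h (nearest 0.17), the last on an array that stood apart as a whole. The ratio differed between lines by 0.407 on the first CRIM1 probe and by 0.464 on the second TWSG1 probe. No other probe of these genes passed. The ranges were 0.516 and 0.378 on the second and the third CRIM1 probe, with other lines highest and lowest, and 0.302 and 0.412 on the first and the third TWSG1 probe.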

How the results depend on the processing

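The vehicle comparison called 9 of 10 genes, and 6 to 9 over 13 alternatives, with 6 where a filter on detection left 6 genes to test. The mean over lines called 0 under all alternatives. From 30 min to 3 to 24 h, leaving out a line gave 0 to 1 calls (CHRD without MDA-MB-231), and leaving out the 4 arrays that stood apart gave 1 (TWSG1, -0.29, adjusted p = 0.0223). The difference between lines fell from 1 call to 0 with all spots, with normexp and median scaling, with slide as a random block and without the 4 arrays, and to 0 to 1 when leaving out a line. For the means of single lines the count was 2 with normexp and loess and 2 without 30 min, 0 without the 4 arrays, and 0 to 2 when leaving out a time point. The CRIM1 mean in T-47D lost its call without 1, 6, 12 or 24 h, without the 4 arrays and with median scaling. Readings past 2-fold numbered 4 with all spots, 4 with normexp and median scaling and 0 with normexp and loess, and 0 passed 3-fold. The second TWSG1 probe kept its direction but missed the threshold in 9 of 14 alternatives.

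Signs turned on values near 0. The mean over lines turned for FST to -0.027 with all spots, -0.034 with normexp and loess and -0.035 with the series matrix, for FSTL1 to -0.018 with the series matrix, for TWSG1 to 0.091 with median scaling, and for CRIM1 to 0.009 with loess, 0.064 with median scaling and 0.004 without the 4 arrays. Leaving out a line gave FSTL1 -0.001 to 0.029, TWSG1 -0.075 to 0.001 and CRIM1 -0.044 to 0.058. The change from 30 min turned for FST to -0.23 with median scaling, for FSTL1 to 0.014 with the series matrix and 0.012 without the 4 arrays, and for FSTL3 to -0.029 with scan batch as a term. Leaving out a line gave FSTL1 -0.04 to 0.009. Of 543 values over 42 results, 445 kept direction and side of the threshold, 76 lost a call, 4 gained one and 18 turned. The cause was not tested.

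Over all probes, the mean over lines called 162 (74.7% upward), 4 with all spots, 188 with loess (64.9% upward), 2063 with median scaling (99.9% upward), 167 with the series matrix (63.5% upward) and 12 to 156 without a line. The change from 30 min called 1166 (50.4% upward), 234 with all spots (33.3% upward), 137 with loess (35.8% upward), 0 with median scaling (1598 at an unadjusted p under 0.05), 1079 with the series matrix (63.2% upward), 13 with scan batch as a term (30.8% upward), 2187 with 1 h counted with 30 min, 3729 without the 4 arrays and 4 to 1362 without a line. The difference between lines called 5290, 63 with median scaling, 2454 with slide as a block, 3463 without the 4 arrays and 509 to 7993 without a line. Line means called 15067 (47.3% upward), 16034 with the series matrix (33.9% upward), 6138 with median scaling (91.3% upward) and 8525 to 12250 without a time point. Readings past 2-fold numbered 6102 (45.3% upward), 22869 with all spots, 3041 with loess, 27334 with median scaling (82.7% upward) and 3392 without the 4 arrays. Median scaling left array medians of up to 0.79 among spots above background and moved the median change from 30 min over all probes to -0.11. With time point as a replicate block, added after the values were seen, the difference between lines called 1 antagonist (CRIM1, 0.407, adjusted p = 0.0312) and 7147 probes. Signal over background limits NOG, SOST, GREM1 and BMPER.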
